A study of Mus musculus with 675 samples.

Results

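Cardiac troponin T, encoded by Tnnt2, was found at 20 or more CPM (1000000 times the count of a gene over the total count of the cell) in 27 cells of the first plate and 76 of the second, out of 548 aortic smooth muscle cells and 675 cells in the series. Smooth muscle cells were those with Myh11 at or above 1000 CPM, Cnn1 at or above 500 CPM and Cdh5 under 100 CPM, in which fewer than 2 of the fibroblast genes Dcn, Lum, Serpinf1 and Pi16 reached 100 CPM. The smooth muscle cells at or above the Tnnt2 threshold are called Tnnt2+ here. They were compared within each plate with the smooth muscle cells that had 0 Tnnt2 counts (Tnnt2-zero). The other smooth muscle cells had Tnnt2 counts under 20 CPM (Tnnt2-low).

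All cells came from male C57BL/6 mice aged 10 weeks, with no treatment or altered gene named in the labels, and were profiled by Smart-seq2, which amplifies full-length cDNA of single sorted cells on plates. The tissue label is aorta, while the protocol speaks of dissociated heart. Plate A (cell titles aorta_594s) held cells from a pool of 2 mice, and plate B (aorta_912s) cells from another pool of 2 mice. The pool is the replicate (n = 2), and plate and mice are 1 factor. Neither the sort gate nor the region of the aorta is given in the sources used here.

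Troponin T is the tropomyosin-binding subunit of the troponin complex, which with troponin I and troponin C makes the thin filaments of striated muscle respond to calcium. Tnnt2 is the isoform of the heart, Tnnt1 that of slow and Tnnt3 that of fast skeletal muscle. Smooth muscle contraction is instead switched mainly through phosphorylation of the myosin light chain, and not through troponin. Tnnt2 lies on the plus strand of chromosome 1 (GRCm38, chr1:135836354-135852260).

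The 250 bases before the first RefSeq start site of Tnnt2 and before that of Des, which had the lowest p-value of the genes named below, are given to show the sequence next to the genes whose levels are described (RefSeq, GRCm38.p6, plus strand, chr1:135836084-135836333 for Tnnt2 and chr1:75360042-75360291 for Des). Capitals mark an M-CAT element (CATTCC) and a GATA motif (AGATAA, here on the opposite strand), which are motifs described in promoters of striated muscle genes.
Tnnt2: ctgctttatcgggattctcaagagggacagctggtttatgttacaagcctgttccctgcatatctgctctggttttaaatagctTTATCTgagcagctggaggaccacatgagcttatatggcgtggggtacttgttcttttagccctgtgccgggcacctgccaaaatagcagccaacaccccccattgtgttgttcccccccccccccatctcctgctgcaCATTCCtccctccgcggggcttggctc
Des: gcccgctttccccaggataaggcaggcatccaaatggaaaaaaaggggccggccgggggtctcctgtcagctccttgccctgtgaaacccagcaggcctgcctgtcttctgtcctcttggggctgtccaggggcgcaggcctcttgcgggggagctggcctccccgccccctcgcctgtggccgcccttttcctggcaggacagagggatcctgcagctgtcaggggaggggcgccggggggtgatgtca
On either strand, CATTCC was in 12.6% and AGATAA in 9.99% of 32851 promoter windows of the same length. The window of the other RefSeq start site of Tnnt2 held neither motif. The Des window held neither of these motifs, nor a CArG box, a MEF2 site or TATAAA, which were in 1.47%, 0.508% and 12.4% of the windows. A match of letters is a description and not a bound site.

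Tnnt2+ cells made up 9.15% of the smooth muscle cells of plate A (27 cells; exact Clopper-Pearson 95% interval 6.12 to 13.04%) and 30.04% of those of plate B (76 cells; 24.5 to 36.1%). Such intervals take in counting error alone, and Smart-seq2 reads are amplified copies without molecular identifiers. With 1 pool per plate the difference between plates has no test. Cells without any Tnnt2 count were 84.4% of smooth muscle cells on plate A and 22.9% on plate B (58 cells). Tnnt2-low cells were 6.44% (19 cells) and 47.04%.

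Tnnt2, whose level chose the cells, is described without a test. Among Tnnt2+ cells it ran from 22.6 to 875 CPM on plate A, with a median of 202.2 CPM and a median of 57 counts per cell. On plate B it ran from 20.2 to 1974 CPM, with a median of 155.4 CPM and a median of 59 counts. The range of plate A lay within that of plate B, which reached higher. Bands of 20 to under 100, 100 to under 300 and at least 300 CPM held 8, 9 and 10 cells of plate A and 24, 27 and 25 cells of plate B, so that Tnnt2+ cells were spread over the whole range. Next to the threshold, the cells just inside had 22.6, 23.9 and 48.9 CPM on plate A and 20.2, 20.4 and 21.2 CPM on plate B. Those just outside had 13.6, 6.27 and 5.90 CPM on plate A and 19.9, 19.2 and 18.3 CPM on plate B. The threshold thus fell in a gap on plate A and in a continuous run of values on plate B.

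**Figure D1:**
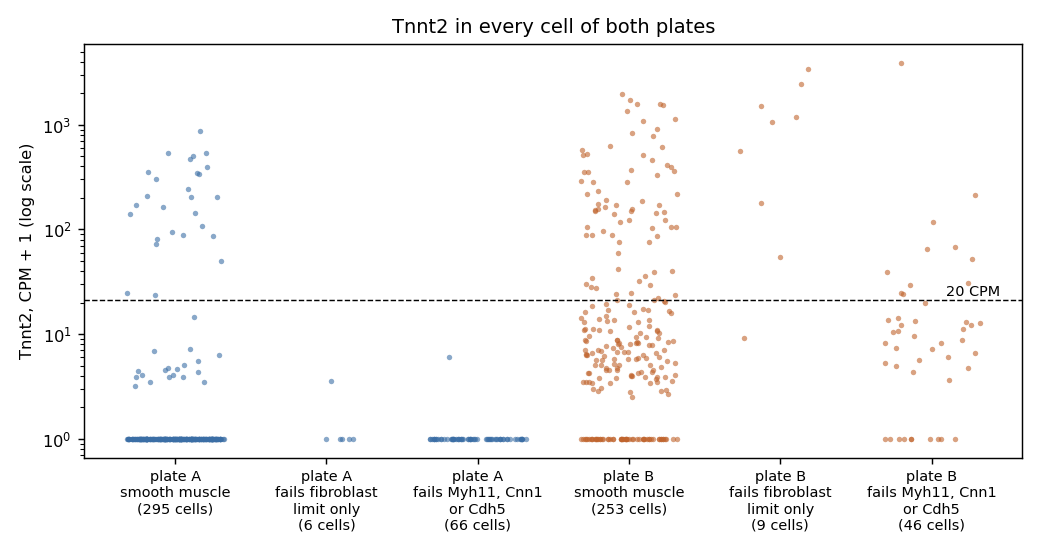
Tnnt2 in CPM + 1 (log axis) for each of the 675 cells, by plate and by whether the cell met the smooth muscle rule, failed only its fibroblast limit, or failed its Myh11, Cnn1 or Cdh5 limit. Each point is a cell and the dashed line is the 20 CPM threshold; low values fill the range under the line on plate B in both smooth muscle and other cells, and are few on plate A.

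Low Tnnt2 counts were also present on plate B in cells that are not smooth muscle by the rule. Among 45 cells of plate B that failed the Myh11, Cnn1 or Cdh5 limit, leaving out the cell with the highest Tnnt2, 35 (77.8%) had a Tnnt2 count and 10 reached 20 CPM. On plate A, 1 of 66 such cells (1.52%) had a count and 0 reached 20 CPM. These cells were shallower, with a median of 154461 counts on plate B (46 cells, the highest included) and 164916 on plate A, against 337686 and 340616 in Tnnt2+ cells. A Tnnt2 count of any size was present in 77.1% of the smooth muscle cells of plate B, against those 77.8%, so counts under 20 CPM are not read as expression there. At 20 CPM or more the shares were 30.04% in smooth muscle and 22.2% in the other cells, so the threshold does not separate smooth muscle from the other cells of plate B. Over all 55 cells of plate B outside the rule, 19 (34.5%) reached 20 CPM. That count takes in the highest cell and the cells that failed only the fibroblast limit, which the 45 leave out. At 100 CPM or more the smooth muscle cells stood at 20.6% (52 cells) on plate B and those 45 cells at 4.44% (2 cells). At 300 CPM or more they stood at 9.88% (25 cells) and 0 of 45, and on plate A at 3.39% (10 cells) and 0 of 66. A count of 0 allows a share above 0 in so few cells; on plate A the exact interval for 20 CPM reached 5.44%.

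The cell of plate B with the highest Tnnt2 of all, 3908 CPM, lay outside the rule with 87.9 CPM of Myh11. It held 5627 CPM of Myh6 (the cardiac myosin heavy chain), 2125 CPM of Tnni3 (cardiac troponin I), 2598 CPM of Myl3 (a myosin light chain of ventricle and slow muscle) and 1204 CPM of Actc1 (cardiac actin). The same cell had 42.4 CPM of Myh7 and 0 counts of the cardiomyocyte markers Tnnc1, Myl2, Myl7, Mybpc3 and Nppa. It was the only cell with Myh6 at 100 CPM or more outside the smooth muscle rule on the 2 plates, and 0 Tnnt2+ and 0 Tnnt2-low cells reached that level. On plate B the Tnnt2+ cells held 8791 of the plate's 12779 Tnnt2 counts (68.8%), the cells outside the rule 29.2% and the Tnnt2-low cells 2.02%. On plate A the Tnnt2+ cells held 2230 of 2253 Tnnt2 counts (98.98%).

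The label was checked against markers other than Myh11 and Cnn1, which the rule itself requires. Tnnt2+ cells carried the 6 smooth muscle markers Acta2, Tagln, Myl9, Smtn, Lmod1 and Mylk at a summed 18070 CPM on plate A and 16966 CPM on plate B. Tnnt2-zero cells stood at 18785 and 17155 CPM. Per cell this sum ran from 12686 to 26153 CPM in Tnnt2+ cells of plate A and from 11158 to 26992 CPM on plate B, and in Tnnt2-zero cells from 10836 to 32176 and from 12714 to 24946 CPM. Of 14 cardiomyocyte markers, 5 were at 0 in all Tnnt2+ cells of plate A and 3 in all those of plate B. In all Tnnt2-zero cells, 3 of these markers were at 0 on plate A and 6 on plate B. On each plate the class with more cells had fewer markers at 0. The number of markers at 0 can fall as more cells are taken in, so it does not tell the classes apart. The summed level of the 14 was 0 to 1659 CPM per Tnnt2+ cell on plate A (median 6.58) and 0 to 1521 CPM on plate B (median 50.6), against medians of 9.91 and 9.20 CPM in Tnnt2-zero cells. Myl2 and Nppa, markers of ventricular and atrial cardiomyocytes, had 0 counts in Tnnt2+, Tnnt2-low and Tnnt2-zero cells of both plates. They also had 0 counts in the cell with 5627 CPM of Myh6, so they do not tell the classes apart.

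Cells with a Myh6 count were more frequent in the Tnnt2+ class on plate B. A Myh6 count was present in 17 of 76 Tnnt2+ cells (22.4%), 10.1% of Tnnt2-low cells (12 cells) and 1 of 58 Tnnt2-zero cells (1.72%) of that plate, and in 1 of 27 Tnnt2+ cells and in 1 Tnnt2-zero cell (0.402%) on plate A. On plate B a Tnni3 count was present in 27.6%, 14.3% and 8.62% of Tnnt2+, Tnnt2-low and Tnnt2-zero cells. An Actc1 count was present in 31.6%, 25.2% and 25.9%, and its summed level was 30.7 CPM in Tnnt2+ and 71.4 CPM in Tnnt2-zero cells. The summed Myh6 level of Tnnt2+ cells was 1.91 CPM on plate B and 0.112 CPM on plate A, beside 350.6 and 250.8 CPM of Tnnt2. At least 2 cardiomyocyte markers reached 20 CPM in 14 of 76 Tnnt2+ and 4 of 58 Tnnt2-zero cells of plate B, and in 1 of 27 Tnnt2+ and 24 Tnnt2-zero cells of plate A. Among these markers Myl4, Ryr2 and Pln reached 20 CPM in 19, 15 and 15 Tnnt2+ cells of plate B. They did so in 24, 76 and 27 Tnnt2-zero cells of plate A. Myh6, Tnni3 and Actc1 reached it in 1, 4 and 7 Tnnt2+ cells of plate B. Leaving out cells with 20 CPM of at least 2 of 8 cardiac genes kept 75 and 27 Tnnt2+ cells on plates B and A. The 8 did not include Myl4, Ryr2, Pln, Myh7, Tnnc1 and Ttn. Myh7, Tnnc1 and Ttn each reached 20 CPM in 1 Tnnt2+ cell of plate A. The 1 Tnnt2+ cell of plate A with at least 2 markers was thus kept. The part of cardiac RNA from other wells or cells in the Tnnt2 counts was not tested.

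Cells that failed only the fibroblast limit also carried Tnnt2 on plate B. Of these 9 cells, 8 (88.9%; exact 95% interval 51.8 to 99.7%) reached 20 CPM, with a median of 1126 CPM and a highest value of 3399 CPM. On plate A, 0 of 6 such cells did. With these cells included, the Tnnt2+ share was 32.1% (84 cells) on plate B and 8.97% (27 cells) on plate A.

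Depth was slightly higher in Tnnt2+ cells. The median count per cell was 340616 in Tnnt2+ and 289320 in Tnnt2-zero cells of plate A, and 337686 and 318903 on plate B. Tnnt2+ cells had more genes with a count, with medians of 5770 against 5343 on plate A and 6433 against 6154 on plate B. After each cell was thinned to 50000 counts the medians were 4169 against 3848 and 4524 against 4278. The mitochondrially encoded share had medians of 1.83% in Tnnt2+ against 1.94% in Tnnt2-zero cells of plate A and 1.65% against 1.85% on plate B. Tnnt2+ cells lay in 14 of 16 rows of plate A and in all 16 rows of plate B, with at most 5 and 9 in a row. No doublet caller was run, and the part of doublets in the higher gene numbers was not tested.

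Counts were summed per plate and class, giving 8890848 (Tnnt2+) and 73825148 (Tnnt2-zero) counts on plate A and 25071175 and 17916985 on plate B. In edgeR's quasi-likelihood test with the plate as a block, of 14957 genes outside the rule 0 were higher (0%) and 0 were lower (0%) in Tnnt2+ cells at a Benjamini-Hochberg adjusted p of at most 0.05. At an unadjusted p under 0.05 1.64% of genes were higher and 2.13% lower, 563 genes in all (3.76%). At least 1.5-fold differences in the same direction within both plates were found for 835 higher genes (5.58%) and 1066 lower genes (7.13%). Among 7161 genes with at least 20 CPM in the higher class of both plates, 1.87% were higher and 2% lower by that fold. The fit has 1 residual degree of freedom. DESeq2's Wald test on the same sums called 9 genes higher and 6 lower, and edgeR without a filter on low counts 2 higher and 3 lower.

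The plates share no cells, and their differences between Tnnt2+ and Tnnt2-zero cells had little in common. Over 7468 genes with a mean of at least 20 CPM, the log2 differences of the plates had a Pearson r of 0.0157, and 50.9% had the same sign. Over 2142 genes with at least 100 CPM r was 0.0698, and over 570 genes with at least 300 CPM it was 0.0415 with 56.3% of the same sign. These values are across genes, which are not independent replicates.

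**Figure D2:**
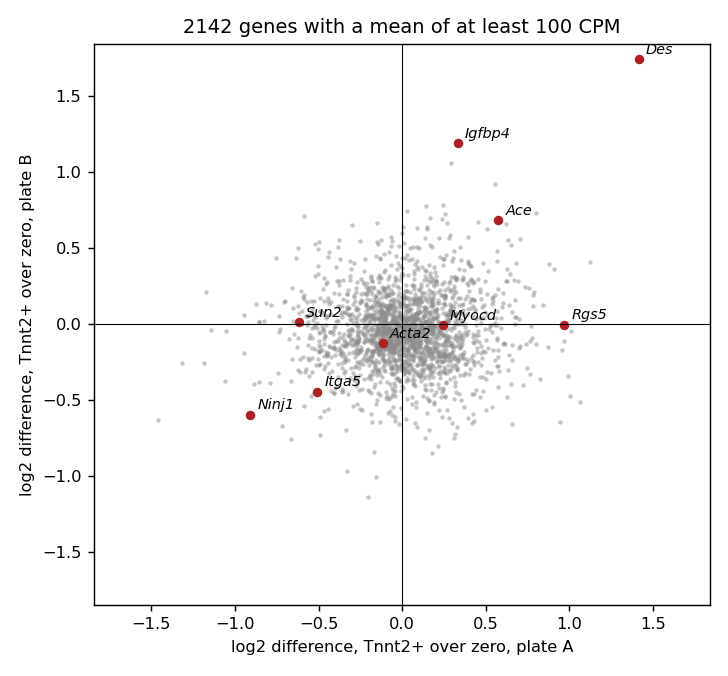
Log2 difference between Tnnt2+ and Tnnt2-zero cells within plate A (horizontal) and plate B (vertical) for the 2142 genes with a mean of at least 100 CPM; each point is a gene and named genes are red. Des stands at 1.42 and 1.74, apart from the cloud around 0, and Acta2 and Myocd lie near the centre.

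Des encodes desmin, the intermediate filament protein of muscle that links contractile units to dense bodies in smooth muscle and to Z-discs in striated muscle. It lies on chromosome 1 (chr1:75360329-75368579) and had the lowest p-value of the named genes. The summed level was 274.2 CPM in Tnnt2+ and 103.2 CPM in Tnnt2-zero cells of plate A, and 470 and 136.2 CPM on plate B. Single cells ran from 0 to 1610 CPM (median 2.98) in Tnnt2+ and from 0 to 2230 CPM (median 0) in Tnnt2-zero cells of plate A. On plate B they ran from 0 to 3292 CPM (median 16.6) and from 0 to 1555 CPM (median 6.48). On plate A 5 Tnnt2-zero cells lay above the highest Tnnt2+ cell, and on plate B 9 Tnnt2+ cells lay above the highest Tnnt2-zero cell; all other cells shared 1 range. A minority of cells in each class reached 20 CPM. There were 8 of 27 Tnnt2+ and 34 Tnnt2-zero cells on plate A (29.6% and 13.7%), and 32 of 76 and 18 of 58 on plate B (42.1% and 31.03%). The fitted log2 difference was 1.58 ± 0.14 (SE, n = 2 plates) with an unadjusted p of 8.21e-05 and an edgeR adjusted p of 0.614. This SE and those below were derived from the F statistic of the edgeR fit, which shares variance between genes. They are not the spread of the 2 plates. Des was not called in the edgeR fit. It was called by DESeq2 (adjusted p 6.93e-15) and by edgeR without the filter (1.70e-08). After thinning to 50000 counts edgeR also called it (0.00626), but the classes were set anew from the thinned counts. Cells of plate B under 20 CPM in their full counts, not read as expression, then entered the Tnnt2+ class. Over the genes with 20 CPM in the higher class alone edgeR called it too (0.00809). That setting was added after seeing the data and picks genes by their level in the classes compared. Neither fit repeats the main test of Des. Without the highest cell of each class the levels of Des were 208.1 and 93.8 CPM on plate A and 425 and 105.8 CPM on plate B. The exons of Des overlap those of the antisense gene Gm15179, and reads of the 2 genes cannot be told apart where the counting did not use strand. The exons of Ace, Cd34, Eln, Fabp3, Hoxa3, Hoxb2, Sun2 and Tmem176b, described below, also overlap those of other genes.

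Other genes named for low p-values with a higher level in Tnnt2+ cells had adjusted p-values of 0.9995 in edgeR and were not called in that fit. Ace encodes angiotensin-converting enzyme, which makes angiotensin II. Its summed level was 266.5 CPM in Tnnt2+ and 180 CPM in Tnnt2-zero cells of plate A, and 307.6 and 185.8 CPM on plate B (log2 difference 0.63 ± 0.12, SE). The median Tnnt2+ cell held 212.01 and 235.4 CPM on the 2 plates and the median Tnnt2-zero cell 98.8 and 99.7 CPM. Medians and sums of Ace thus differed in the same direction. At 20 CPM or more were 24 of 27 and 63 of 76 Tnnt2+ cells and, by their medians, most Tnnt2-zero cells of both plates. Gstm7, a glutathione transferase of the mu class, stood at 119.1 and 48.3 CPM on plate A and 103.9 and 50.96 CPM on plate B (1.15 ± 0.22). It reached 20 CPM in 44.4% against 20.5% of cells on plate A and in 46.1% against 25.9% on plate B.

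Cd34, a sialomucin of progenitor, endothelial and adventitial cells, stood at 50.1 and 5.96 CPM on plate A and 50.4 and 15.1 CPM on plate B (log2 difference 2.39 ± 0.52). It rested on few cells, with 4 of 27 and 13 of 76 Tnnt2+ cells at 20 CPM or more, and was called by DESeq2 (adjusted p 0.0107). Tmem176b, which encodes a membrane protein, stood at 75.3 and 30.3 CPM on plate A and 47.5 and 14.7 CPM on plate B (1.48 ± 0.33). Igfbp2, an insulin-like growth factor binding protein, stood at 101.8 and 36.5 CPM on plate A and 105.8 and 13.3 CPM on plate B (2.21 ± 0.43, n = 2 plates). Igfbp2 was called by DESeq2 (adjusted p 7.60e-05) and by edgeR without the filter (0.000469). On plate A 1 Tnnt2+ cell held 78.8% of its counts. Without the highest cell of each class Igfbp2 was at 22.6 CPM in Tnnt2+ and 33.2 CPM in Tnnt2-zero cells of plate A, so its direction there rests on that cell. On plate B it was at 81.8 and 9.51 CPM without them.

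**Figure D3:**
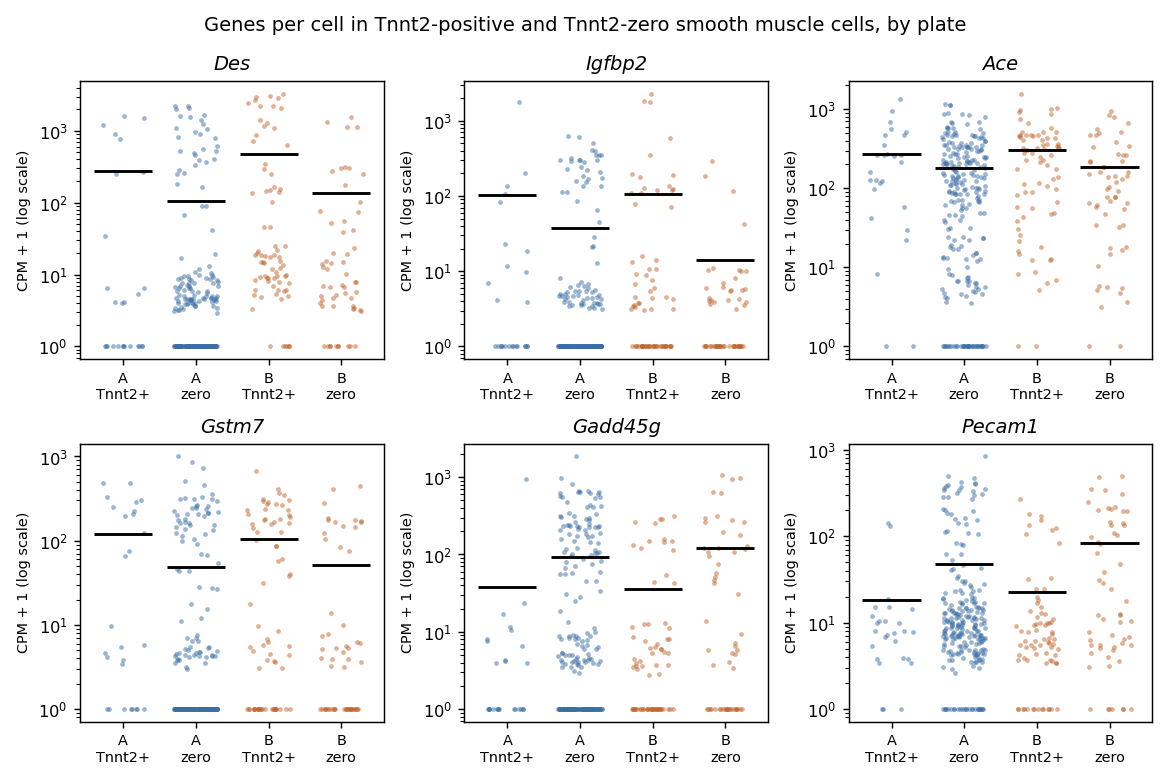
CPM + 1 (log axis) of Des, Igfbp2, Ace, Gstm7, Gadd45g and Pecam1 in each Tnnt2+ and Tnnt2-zero cell of both plates; points are cells and black lines the level summed over the class. The classes overlap in each gene, and the sums of Igfbp2 and Gadd45g in Tnnt2+ cells of plate A lean on a high cell each.

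Genes named for low p-values with a lower level in Tnnt2+ cells were not called in that edgeR fit either, with adjusted p-values of 0.9995. Gadd45g, a stress-induced gene of the growth arrest and DNA damage family, stood at 37.2 CPM in Tnnt2+ and 91.9 CPM in Tnnt2-zero cells of plate A, and at 35.02 and 120 CPM on plate B (log2 difference -1.56 ± 0.26, SE, n = 2 plates). It reached 20 CPM in 7.41% against 31.7% of the cells of plate A and in 19.7% against 43.1% of those of plate B. A single Tnnt2+ cell held 90.3% of the counts of its class on plate A, and without the highest cells the levels were 3.73 and 82.5 CPM. Pecam1, an adhesion molecule of endothelial cells and platelets, stood at 17.3 and 46.99 CPM on plate A and 21.5 and 83.1 CPM on plate B (-1.72 ± 0.34). Pecam1 reached 20 CPM in 7.41% against 23.7% of cells on plate A and in 17.1% against 46.6% on plate B. DESeq2 called both genes lower, and edgeR without the filter called Gadd45g lower (adjusted p 0.00727).

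Itga5, the alpha subunit of the fibronectin receptor, stood at 262.2 and 375 CPM on plate A and 456 and 602 CPM on plate B (-0.48 ± 0.09). On plate A its median per cell went the other way, with 237.8 CPM in Tnnt2+ and 210 CPM in Tnnt2-zero cells. Ninj1, an adhesion protein that takes part in membrane rupture, stood at 92.1 and 173.8 CPM and at 161.1 and 236.5 CPM (-0.75 ± 0.16). CT010467.1 overlaps the exons of AY036118 and Gm42418, so its reads are uncertain; it stood at 8498 and 9321 CPM and at 8961 and 9599 CPM (-0.13 ± 0.02).

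**Figure D4:**
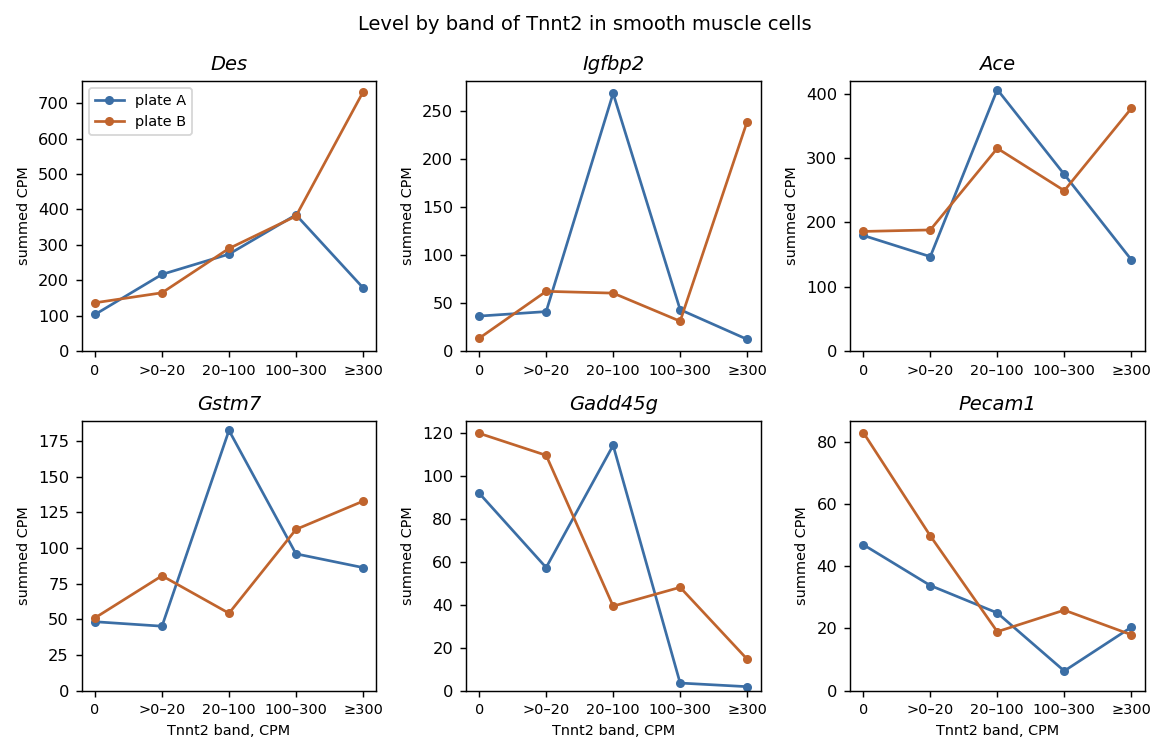
Summed CPM of 6 genes (vertical axes, linear) in smooth muscle cells grouped by their Tnnt2 level (horizontal axes, CPM) for plate A (blue) and plate B (orange). On plate B Des stands at 136.2 CPM in cells without Tnnt2 and at 731 CPM in cells with at least 300 CPM of Tnnt2, while on plate A it is at 178.8 CPM in the highest band.

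The levels were also followed over bands of Tnnt2, as a description with no test. On plate B Des stood at 136.2, 164.5, 290, 381 and 731 CPM from the band without Tnnt2 to the band of 300 CPM and more, higher at each step. On plate A it stood at 103.2, 216.4, 273.7, 385 and 178.8 CPM, with the highest band under the 2 before it. Each band of Tnnt2+ cells held 8 to 10 cells on plate A.

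The other troponin genes were low in both classes. Tnnt1 stood at 15.1 CPM in Tnnt2+ and 3.56 CPM in Tnnt2-zero cells of plate A and at 9.41 and 5.86 CPM on plate B, and 1 cell held 96.3% of its Tnnt2+ counts on plate A. Tnnt3 stood at 1.13 and 0.528 CPM and at 2.23 and 1.67 CPM. Tnni3, the troponin I of the heart, stood at 13.7 and 0.0813 CPM on plate A, where 1 cell held all counts of each class, and at 6.42 and 1.73 CPM on plate B. Tnnc2, the troponin C of fast muscle, stood at 7.65 and 0.0406 CPM and at 1.72 and 0.112 CPM. Tnnc1, the troponin C of heart and slow muscle, and Tnni1, the troponin I of slow muscle, did not pass the filter on low counts. Tnnc1 stood at 4.50 and 0.379 CPM on plate A and at 0.0399 and 0 CPM on plate B. Of the 27 and 76 Tnnt2+ cells of the plates, 1 and 4 reached 20 CPM of Tnni3. None of these genes was called. The exons of Tnnc2 overlap those of Ube2c, and those of Tnni3 overlap Dnaaf3 on the same strand, a gene called by DESeq2, so their reads are uncertain.

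In a list of 20 troponin, tropomyosin and thin filament genes, 16 were tested, 0 were called, and 4 were at least 1.5-fold higher (Tmod1, Tnnc2, Tnni3, Tnnt1) and 2 lower (Lmod3, Nrap) in both plates, beside 5.58% and 7.13% of all genes tested. Their median log2 difference was 0.06, beside -0.04 over all genes tested. Tmod1, a protein that caps thin filament ends, stood at 66.8 and 43.7 CPM on plate A and at 92.6 and 36.1 CPM on plate B. The smooth muscle tropomyosins were close between the classes, with Tpm1 at 2320 and 2217 CPM and at 2463 and 2420 CPM and Tpm2 at 2640 and 2863 CPM and at 2684 and 2755 CPM.

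Of 36 smooth muscle contractile genes 35 were tested and 0 called by edgeR, while Des was called in the other fits named above, with the limits given there. Des alone differed by 1.5-fold in both plates, beside 5.58% higher and 7.13% lower of all genes tested. Of the 36 genes, 35 had at least 20 CPM in each class of both plates. Among genes with 20 CPM in the higher class of both plates, the shares were 1.87% and 2%. The median log2 difference of the list was -0.01. Acta2, smooth muscle actin, stood at 6218 and 6773 CPM on plate A and 5756 and 6100 CPM on plate B (-0.12 ± 0.03). Myocd, the coactivator that drives the contractile program, stood at 510 and 433 CPM and at 873 and 851 CPM; the log2 difference after TMM scaling was 0.24 on plate A and -0.0042 on plate B. Among 35 sarcomere and Z-disc genes, 26 were tested and 0 called. Ankrd1 and Popdc2 were at least 1.5-fold higher in both plates and 0 lower, beside 5.58% and 7.13% of all genes tested. Popdc2, a membrane protein of striated and smooth muscle, stood at 61.8 and 30.6 CPM and at 100.6 and 49.6 CPM (0.998 ± 0.25, unadjusted p 0.00983). In the list of 44 myocardin, SRF, MEF2 and cardiac transcription factor genes, 33 were tested, with 0 called. At least 1.5-fold in both plates, 2 were higher (Hand2, Pbx3) and 2 lower (Msx2, Tbx3), beside 5.58% and 7.13% of all genes tested. Hand2, a transcription factor of heart and limb development, stood at 48.6 and 26.1 CPM and at 58.1 and 18.98 CPM.

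Among 23 cardiomyocyte genes 11 were tested, 0 were called and Tnni3 alone was at least 1.5-fold higher in both plates, beside 5.58% of all genes tested. Their median log2 difference was 0.72 within plate A and -0.19 within plate B. Fabp3, a fatty acid binding protein of heart, stood at 46.6 and 27.2 CPM on plate A and at 42.8 and 47.3 CPM on plate B.

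A list of 26 genes of modulated smooth muscle, those described in cells that leave the contractile state, had 23 tested members and 0 calls in edgeR. DESeq2 called Cd34, and edgeR after thinning called Spp1. At an unadjusted p under 0.05, 6 were higher and 1 lower, against 1.64% and 2.13% of all genes. Cd34, Runx2, Timp1 and Tnfrsf11b were at least 1.5-fold higher in both plates and 0 lower, beside 5.58% and 7.13% of all genes tested. Tnfrsf11b, the decoy receptor osteoprotegerin, stood at 104.2 and 37.995 CPM on plate A and at 55.5 and 29.6 CPM on plate B (1.16 ± 0.29). Timp1, a metalloproteinase inhibitor, stood at 82.3 and 26.3 CPM and at 46.6 and 28.97 CPM (1.15 ± 0.38). Runx2, an osteogenic transcription factor, was at 4.50 CPM or lower in each class. The list's median log2 difference was 0.16, with 0.14 on plate A and -0.002 on plate B. Vim and Clu, its most abundant members, were close between classes, with Vim at 3900 and 4234 CPM and at 3741 and 3757 CPM and Clu at 1894 and 1883 CPM and at 1882 and 1856 CPM.

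Of 29 immediate early genes, all were tested and 0 called by edgeR, while DESeq2 called Fosl1 and Gadd45g, and edgeR without the filter Gadd45g. Egr3, Fosl1, Gadd45g, Nr4a2 and Nr4a3 were at least 1.5-fold lower in both plates and Maff higher, beside 7.13% and 5.58% of all genes. At an unadjusted p under 0.05, 3 were higher (Btg2, Jun, Junb) and 2 lower (Fosl1, Gadd45g), beside 1.64% and 2.13% of all genes tested. Fos stood at 1070 and 1108 CPM on plate A and at 965 and 757 CPM on plate B, and Jun at 309.3 and 249.02 CPM and at 237.9 and 185.9 CPM. Of 13 tested Notch genes 0 were called, with Hey1, Jag2 and Nrarp lower and Dll1 higher by 1.5-fold in both plates (7.13% and 5.58% of all genes), each under 20 CPM in the classes of both plates. Heyl, a Notch target of vascular smooth muscle, stood at 323.7 and 333.96 CPM and at 532 and 379 CPM.

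Of 13 tested insulin-like growth factor genes 0 were called by edgeR, while Igfbp2 was called by DESeq2 and without the filter. Igfbp2 and Igfbp6 were at least 1.5-fold higher in both plates and 0 lower, beside 5.58% and 7.13% of all genes tested. Igfbp4 stood at 187.9 and 150 CPM on plate A and at 363.6 and 154.5 CPM on plate B (0.76 ± 0.23, unadjusted p 0.0201). Lists of elastic fibre genes (19 tested), collagens (19), proteoglycans and matricellular genes (27), basement membrane genes and integrins (22), heat shock genes (23) and clock genes (19) had 0 called members each in edgeR with the filter; Spp1, called after thinning, is also in the matricellular list. There were also 0 calls among ion channels and calcium handling genes (36 tested), vasoactive receptors (26), TGF-beta and BMP genes (28), Hox genes (14), cell cycle genes (13) and nuclear envelope genes (10). Eln stood at 2595 and 2726 CPM and at 2025 and 2115 CPM, and Col18a1 at 1769 and 1678 CPM and at 1509 and 1399 CPM. Hoxb2 and Hoxa3, transcription factors whose genes are used along the body axis, stood at 68.1 and 68.2 CPM and at 44.4 and 53.7 CPM on plate A, and at 61.1 and 70.8 CPM and at 31.7 and 34.4 CPM on plate B.

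Of the summed markers of other cell types given here, only the endothelial sum differed in the same direction on both plates. The 4 endothelial markers summed to 19.01 and 48.9 CPM on plate A and to 22.5 and 84.1 CPM on plate B, nearly all of it Pecam1, beside the lower Pecam1 above. The 6 fibroblast markers, 4 of which the rule limits, summed to 48.9 and 65.8 CPM and to 88.1 and 75.7 CPM. Gsn and Mfap5, listed with fibroblast genes and also present in smooth muscle, stood at 770 and 1039 CPM and at 352.6 and 454 CPM on plate A, and at 1016 and 1148 CPM and at 511 and 593 CPM on plate B. The 5 pericyte markers, which include Rgs5 and Abcc9, summed to 1376 and 908 CPM on plate A and to 596 and 656 CPM on plate B, and the 3 immune markers to 0 and 5.31 CPM and to 0.279 and 0.112 CPM. Rgs5, a regulator of G protein signalling in mural cells, stood at 1089 and 558 CPM on plate A and at 271.7 and 264.5 CPM on plate B. Sun2, a nuclear envelope protein, stood at 162.9 and 250.8 CPM on plate A and at 715 and 688 CPM on plate B; the difference between the plates was larger than that between the classes.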

How the data were processed

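Each sample is 1 cell. Plate A held 367 cells, of which 295 were smooth muscle by the rule (27 Tnnt2+, 19 Tnnt2-low, 249 Tnnt2-zero). Plate B held 308 cells, of which 253 were smooth muscle (76, 119 and 58). The 103 Tnnt2+ cells were thus compared with 307 Tnnt2-zero cells. The authors deposited whole-number read counts for 46517 gene identifiers. The submitters' processing notes name bcl2fastq, Bowtie, Bowtie2, Subread, featureCounts and GRCm38 (mm10), without versions; strand use and removal of duplicates were not given. 0 columns lay outside the labelled cells, and 0 cells had identical columns. Gene symbols came from GENCODE M21, and 512 identifiers without a symbol held 0.217% of counts.

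CPM was computed from the deposited counts. The cells, thresholds and gene lists were chosen with earlier results of these data known. Counts were summed per plate and class and fitted in edgeR 4.0.16 (R 4.3.3) with TMM, filterByExpr, the plate as a block, the quasi-likelihood F test and Benjamini-Hochberg adjustment. The 8 genes of the rule were left out. The script was tested on simulated data. Both classes of a plate come from the same mice, which is the pairing; plate deviations of the classes correlated with r = 0.393 over 7468 genes (log2 of CPM + 1). Cells are not replicates, and no p-value was computed over cells.

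Genes named were, in each direction, the 12 largest called changes with the same sign in both plates, 20 CPM in the higher class of both plates and 20 CPM in 10% of its cells; with fewer than 6 called, the 6 of lowest p were taken. Up to 4 called or the 2 most abundant members of each list and a set of troponin and other genes were added; further list members named above were chosen after their values were seen. Some genes are not reported here, and the list of cardiac transcription factors was counted without one of them. Alternatives were DESeq2 1.42.0, its size factors, no filter, other Tnnt2 thresholds, other comparison cells, thinning, a depth minimum, exclusion of cells with cardiac transcripts, per-cell means with limma 3.58.1 and single plates. Added after seeing the data were the rule without its fibroblast limit, genes with 20 CPM only, and sums without the highest cells.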

Additional observations from a re-analysis of the deposited data

Results flagged for a closer look

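On plate B, 77.8% of the cells that failed the Myh11, Cnn1 or Cdh5 limit had a Tnnt2 count (35 of 45 cells, the highest left out), against 1.52% on plate A; these cells are outside the comparison of smooth muscle cells. Of the cells of plate B that failed only the fibroblast limit, 88.9% (8 of 9) had Tnnt2 at 20 CPM or more, against 0 of 6 on plate A. Actc1, cardiac actin, had a log2 difference of 2.67 within plate A and of -1.26 within plate B, opposite signs that were not tested. A single cell held 97.2% of the Actc1 counts of Tnnt2+ cells on plate A, and another held 95.4% of those of Tnnt2-zero cells on plate B.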

How the results depend on the processing

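The count of called genes was 0 higher and 0 lower in the edgeR fit with the plate as a block. It was 9 higher and 6 lower with DESeq2, 2 and 3 without the filter on low counts, 2 and 0 after thinning to 50000 counts, and 1 and 1 over the genes with 20 CPM in the higher class; the other 10 fits gave 0 calls. Calls of DESeq2 included Art3, Dnaaf3, F13a1, Fam161b, Farp1, Fosl1, Hic2, Iba57, Igfbp2, Nckipsd and Cd34. The second call after thinning was Spp1, with all Tnnt2+ counts of plate A in 1 cell and 0 counts in Tnnt2+ cells of plate B, and over the genes with 20 CPM it was CT010467.1. The thinned fit compared classes set anew from the thinned counts. No replicate block gave 0 calls and 2.38% of genes at an unadjusted p under 0.05, against 3.76% with it. With 1 plate there is no residual degree of freedom and no test.

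Des kept its sign in each setting run, with log2 differences of 1.28 to 1.74 and adjusted p-values from 6.93e-15 to 0.99996. Among the genes named for low p-values and the troponin and other fixed genes, signs turned for Tnnt3 with Tnnt2+ cells from 100 CPM (-2.0), for Tnnt1 without the highest cells (-0.51), for Myocd after thinning (-0.020), and between the plates taken alone for Sun2 (-0.62 on plate A, 0.014 on plate B), Myocd (0.24 and -0.0042) and Rgs5 (0.97 and -0.0019); edgeR called none of these genes. Of 375 list medians under another setting, 42 had the other sign, in 18 of 27 lists.

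The share of Tnnt2+ cells on plate B was 39.5%, 23.7% and 20.6% at thresholds of 10, 50 and 100 CPM, and 47.4% after thinning, where 1 count equals 20 CPM. Low Tnnt2 counts on plate B, also present in cells outside smooth muscle, limit any statement on cells near the threshold. Only 27 Tnnt2+ cells on plate A and 2 pools of mice limit the comparison of genes.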
